A study of Homo sapiens with 8 samples.

Results

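Transcripts of 10 genes that restrain or report on signalling through mitogen-activated protein (MAP) kinases were followed in A549 cells with and without dexamethasone. The genes were taken by symbol: the MAP kinase phosphatases DUSP1, DUSP4, DUSP5, DUSP6 and DUSP10, the RAS-ERK feedback inhibitors SPRY2, SPRY4 and SPRED1, and the ERK-dependent transcription factors ETV4 and ETV5. All 10 were found among the 19158 genes measured, and all 10 passed the filter on low values. A549 is an established epithelial line from a human lung adenocarcinoma, labelled wild type for genotype. Untreated (NT) cells were compared with cells given 1 µM dexamethasone, a synthetic glucocorticoid, for 48 h. Each group had 4 libraries, 1 per culture well, numbered 1, 3, 4 and 5, and all 8 carried the same batch label. Wells of 1 line were compared, so the p-values measure the spread between these wells.

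MAP kinases are switched on by phosphorylation of a threonine and a tyrosine, and the dual-specificity phosphatases (DUSPs) remove both. DUSP1, DUSP2, DUSP4 and DUSP5 are nuclear enzymes, DUSP6, DUSP7 and DUSP9 are cytoplasmic and prefer ERK, and DUSP8, DUSP10 and DUSP16 prefer the stress kinases JNK and p38. Sprouty (SPRY) and SPRED proteins act upstream, between receptor tyrosine kinases and RAF, and ETV1, ETV4 and ETV5 form the PEA3 group of ETS factors. Many of these genes are themselves transcribed in response to ERK, which makes a negative feedback loop. DUSP1 is also a classical glucocorticoid-induced gene.

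RefSeq starts in the build GRCh38.p14 were used for DUSP1, DUSP6, DUSP10, SPRY2, SPRY4 and SPRED1 (6 of the 10 genes). No start was used for DUSP4, DUSP5, ETV4 and ETV5, whether or not RefSeq lists one, so their upstream bases were not searched. The 250 bases before 4 starts are shown because DUSP1 rose and DUSP8, a relative, fell while both hold the palindromic cyclic AMP response element, and because DUSP6 and SPRY2, a cytoplasmic phosphatase and a Sprouty gene of the feedback loop, hold the ETS core. Capitals mark the cyclic AMP response element TGACGTCA. They also mark the TATA box, spelled TATAAA. The ETS core CGGAA is in capitals as well, on either strand. All 4 lie on the minus strand and are printed 5′ to 3′ along the gene.
DUSP1, chr5:172771196-172771445: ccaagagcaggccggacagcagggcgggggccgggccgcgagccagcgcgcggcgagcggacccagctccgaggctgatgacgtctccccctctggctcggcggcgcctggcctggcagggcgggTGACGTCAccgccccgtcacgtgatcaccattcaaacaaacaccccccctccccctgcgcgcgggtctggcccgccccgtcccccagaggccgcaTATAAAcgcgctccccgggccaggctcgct
DUSP8, chr11:1572272-1572521: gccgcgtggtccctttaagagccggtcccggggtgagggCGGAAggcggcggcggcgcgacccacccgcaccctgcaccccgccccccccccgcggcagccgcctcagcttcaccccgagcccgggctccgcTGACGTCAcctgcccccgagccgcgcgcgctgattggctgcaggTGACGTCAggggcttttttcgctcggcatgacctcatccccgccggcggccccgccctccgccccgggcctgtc
DUSP6, chr12:89352502-89352751: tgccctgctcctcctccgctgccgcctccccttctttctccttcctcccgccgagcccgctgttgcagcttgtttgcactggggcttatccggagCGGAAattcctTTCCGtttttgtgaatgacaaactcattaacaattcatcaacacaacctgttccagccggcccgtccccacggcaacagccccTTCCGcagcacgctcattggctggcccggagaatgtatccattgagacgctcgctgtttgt
SPRY2, the most upstream of its 3 starts, chr13:80341127-80341376: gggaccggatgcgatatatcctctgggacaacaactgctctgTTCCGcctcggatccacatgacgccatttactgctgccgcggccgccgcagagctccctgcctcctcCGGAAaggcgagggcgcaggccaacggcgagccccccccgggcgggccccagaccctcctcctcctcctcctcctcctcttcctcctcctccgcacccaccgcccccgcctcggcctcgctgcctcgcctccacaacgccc
In DUSP1 the cyclic AMP response element begins 125 bases and the TATA box 30 bases before the start. In DUSP8 there were 2 copies of the element, beginning 118 and 74 bases before the start. Over 35116 RefSeq windows, each searched over the 250 bases before the start, TGACGTCA was present in 1.65%, TATAAA in 10.7% and CGGAA in 30.3%, counting both strands. Of the 9 windows of the 6 genes, CGGAA was in 2, those shown for DUSP6 and SPRY2. It was also in windows of DUSP8, DUSP16, SPRY1, ETV1 and TSC22D3. The full palindromic glucocorticoid response element was in 0 of the 9 windows of the 6 genes and in 0.00285% of the 35116 windows searched. These matches describe letters in a short window and not bound sites.

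The values are FPKM, fragments normalised to transcript length and to the fragments mapped in the library, and levels are given as deposited. Fold changes are differences in log2(FPKM + 1) after scaling between libraries, tested with limma over 12161 genes with Benjamini-Hochberg adjustment, and a gene passed at an adjusted p under 0.05. Untreated replicate 5 stood apart, with 10555 genes at 1 FPKM or more against 11290 to 11378 in the other untreated libraries, and dexamethasone replicate 5 had 11008 against 11263 to 11319. Sums of FPKM were 338989 to 373855 per library. The treatment label was checked on FKBP5, a glucocorticoid-induced chaperone gene, which was at 3.28 to 7.30 FPKM untreated and 87.3 to 166 FPKM after dexamethasone; TSC22D3 and PER1, also known targets, rose with log2 fold changes of 3.86 and 1.93 (limma adjusted p = 4.06e-07 and 3.79e-05). Among epithelial markers KRT8 and KRT18, the simple-epithelium keratins, were at 805 to 2195 FPKM, CDH1, which encodes E-cadherin, was at 4.90 to 19.7 FPKM, and EPCAM was at 0.140 to 0.765 FPKM. The leukocyte genes PTPRC and CD3E and the fibroblast gene COL1A2 were listed at 0 in all 8 libraries. Summed levels were 5.78 to 7.52 FPKM untreated and 3.07 to 3.75 FPKM after dexamethasone for 4 leukocyte markers (mainly CD68 and CD14), 1.82 to 2.30 and 0.598 to 0.786 FPKM for 6 fibroblast markers, and 0.0692 to 0.182 and 0.0383 to 0.0972 FPKM for 4 endothelial markers. Of the fibroblast markers, COL1A1 was at 1.79 to 2.25 FPKM untreated and 0.274 to 0.437 FPKM after dexamethasone. DCN went the other way, from 0 in each untreated library to 0.178 to 0.355 FPKM after dexamethasone. The part of these shifts in the results was not tested. In bulk RNA, fewer cells that express a gene and less of its RNA per cell cannot be told apart.

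After dexamethasone DUSP1 rose, and DUSP4, DUSP10, SPRY2, ETV4 and ETV5 fell, while DUSP5, DUSP6, SPRY4 and SPRED1 did not pass the test. Thus 1 of 10 was higher and 5 of 10 were lower, where 12.1% of all tested genes were higher and 14.8% lower (27.0% in either direction). The median log2 fold change of the 10 genes was -0.37, against 0.00 over all tested genes. The 10 genes were chosen with earlier results of these data known, so these counts are a description. In deposited FPKM the groups did not overlap for the same 6 genes, where 31.5% of tested genes showed no overlap.

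**Figure D1:**
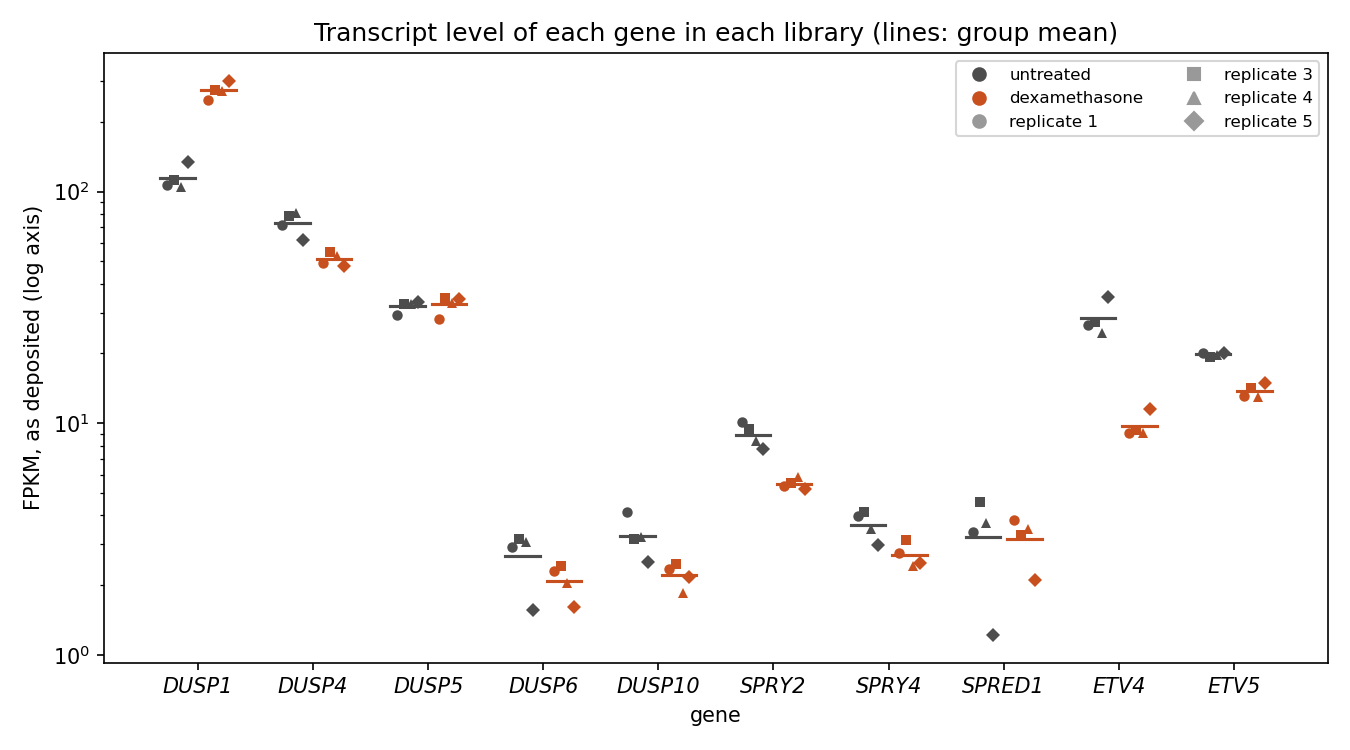
Deposited FPKM (log axis) of the 10 genes in each of the 8 libraries, with colours for the groups, symbols for the replicate numbers and lines for group means. DUSP1 lies higher in all 4 dexamethasone libraries (249 to 301 FPKM against 104 to 134), ETV4 lies lower in all 4 (9.04 to 11.6 against 24.6 to 35.04), and the replicates numbered 5 are the lowest for SPRED1 and DUSP6.

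DUSP1 (ENSG00000120129, chromosome 5, 172768090 to 172771195, minus strand) encodes the nuclear phosphatase MKP-1, which acts on p38, JNK and ERK. Its level was 107, 113, 104 and 134 FPKM in untreated replicates 1, 3, 4 and 5, and 249, 273, 271 and 301 FPKM in dexamethasone replicates 1, 3, 4 and 5. Each dexamethasone library lay above each untreated one, and the replicate numbered 5 was the highest in both groups. Group means were 114.5 ± 13.3 and 274 ± 21.4 FPKM (SD, n = 4 each), so the ratio was 2.39, and the log2 fold change was 1.24 (SE 0.187, 95% confidence interval 0.82 to 1.66, limma adjusted p = 0.00108). DUSP1 was the most abundant of the 10 in both groups. It overlaps an antisense long non-coding RNA over 3100 bases, and reads of the strands cannot be told apart unless the counting used strand, which is not stated in the sources used here.

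DUSP4 (ENSG00000120875, chromosome 8, 29333064 to 29350668, minus strand), the nuclear phosphatase MKP-2 and an ERK-induced gene, went the other way. Untreated replicates 1, 3, 4 and 5 had 71.8, 78.6, 80.6 and 61.7 FPKM. The dexamethasone replicates of the same numbers had 49.3, 54.9, 52.5 and 47.9 FPKM. The highest dexamethasone library was below the lowest untreated library, and the log2 fold change was -0.52 (SE 0.110, 95% confidence interval -0.76 to -0.27, limma adjusted p = 0.00686). Within a library the ratio of DUSP1 to DUSP4 was 1.30 to 2.17 untreated and 4.98 to 6.28 after dexamethasone.

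DUSP5 (ENSG00000138166, chromosome 10, 110497838 to 110511544, plus strand), a nuclear phosphatase specific for ERK, was nearly level. Its values were 29.2, 32.6, 32.7 and 33.5 FPKM untreated and 28.1, 34.7, 32.9 and 34.5 FPKM after dexamethasone, in replicates 1, 3, 4 and 5, and the ranges overlapped. The log2 fold change was 0.01 with a 95% confidence interval of -0.33 to 0.35 (limma adjusted p = 0.974), so a change of a size within that interval was not excluded. DUSP2, the remaining nuclear enzyme of the family, was at 0 to 0.285 FPKM in the 8 libraries, below the filter.

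Of the cytoplasmic ERK phosphatases, DUSP6 (ENSG00000139318, chromosome 12, 89347232 to 89353271, minus strand), known as MKP-3, was the least abundant of the 10 genes in both groups. Untreated replicates 1, 3, 4 and 5 had 2.93, 3.17, 3.08 and 1.56 FPKM, against 2.29, 2.42, 2.05 and 1.60 FPKM after dexamethasone. The groups overlapped only through untreated replicate 5. Over all libraries the log2 fold change was -0.24 (95% confidence interval -0.55 to 0.07, limma adjusted p = 0.228), and without untreated replicate 5 it was -0.34 and passed (limma adjusted p = 0.0387). DUSP7, its closest relative, fell from 5.14 ± 0.401 to 3.09 ± 0.222 FPKM (SD, n = 4 each; log2 fold change -0.59, limma adjusted p = 0.00485); with the GC trend removed it was -0.35 and passed (limma adjusted p = 0.0225). DUSP9 was below 1 FPKM in all 8 libraries and did not pass (log2 fold change -0.15, limma adjusted p = 0.333).

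DUSP10 (ENSG00000143507, chromosome 1, 221701424 to 221742176, minus strand), or MKP-5, acts on JNK and p38. It was at 4.14, 3.18, 3.24 and 2.52 FPKM untreated and at 2.35, 2.48, 1.84 and 2.17 FPKM after dexamethasone, in replicates 1, 3, 4 and 5. The groups were separated narrowly, by 2.52 against 2.48 FPKM, and the log2 fold change came to -0.41 (SE 0.128, 95% confidence interval -0.70 to -0.12, limma adjusted p = 0.0400). This call was lost when untreated replicate 1, 3 or 4 was left out (log2 fold changes -0.33, -0.44 and -0.43) or dexamethasone replicate 1, 3, 4 or 5 (-0.41, -0.44, -0.34 and -0.43), with limma adjusted p of 0.0509 to 0.132 in these fits. It was also lost with no scaling between libraries (limma adjusted p = 0.0665) and with libraries set to equal sums (-0.36, limma adjusted p = 0.115).

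The relatives of DUSP10 diverged. DUSP8 was at 1.15 to 1.48 FPKM untreated and at 0.371 to 0.409 FPKM after dexamethasone, a fall of 3.42-fold in mean FPKM (log2 fold change -0.76 on the scale with 1 added, which understates low genes; limma adjusted p = 0.000461). With a pseudocount of 0.1 it was -1.56, and with the GC trend removed -0.46, and it passed in both (limma adjusted p = 0.000296 and 0.00879). DUSP8 met the filter of 0.5 FPKM in 4 libraries only through the untreated group. Its call and its place in the family count carry that limit. DUSP16 was at 6.23 ± 1.34 FPKM untreated and 8.38 ± 1.30 FPKM after dexamethasone (SD, n = 4 each) and did not pass (log2 fold change 0.38, limma adjusted p = 0.0626). It passed with the GC trend removed and without both libraries numbered 5, at a log2 fold change of 0.37 in each (limma adjusted p = 0.0136 and 0.0175). Over the 10-gene phosphatase family, 9 genes were tested, of which 1 (DUSP1) was higher, 4 (DUSP4, DUSP7, DUSP8 and DUSP10) were lower and 4 did not pass, with a median log2 fold change of -0.24; over all tested genes 12.1% were higher and 14.8% lower.

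**Figure D2:**
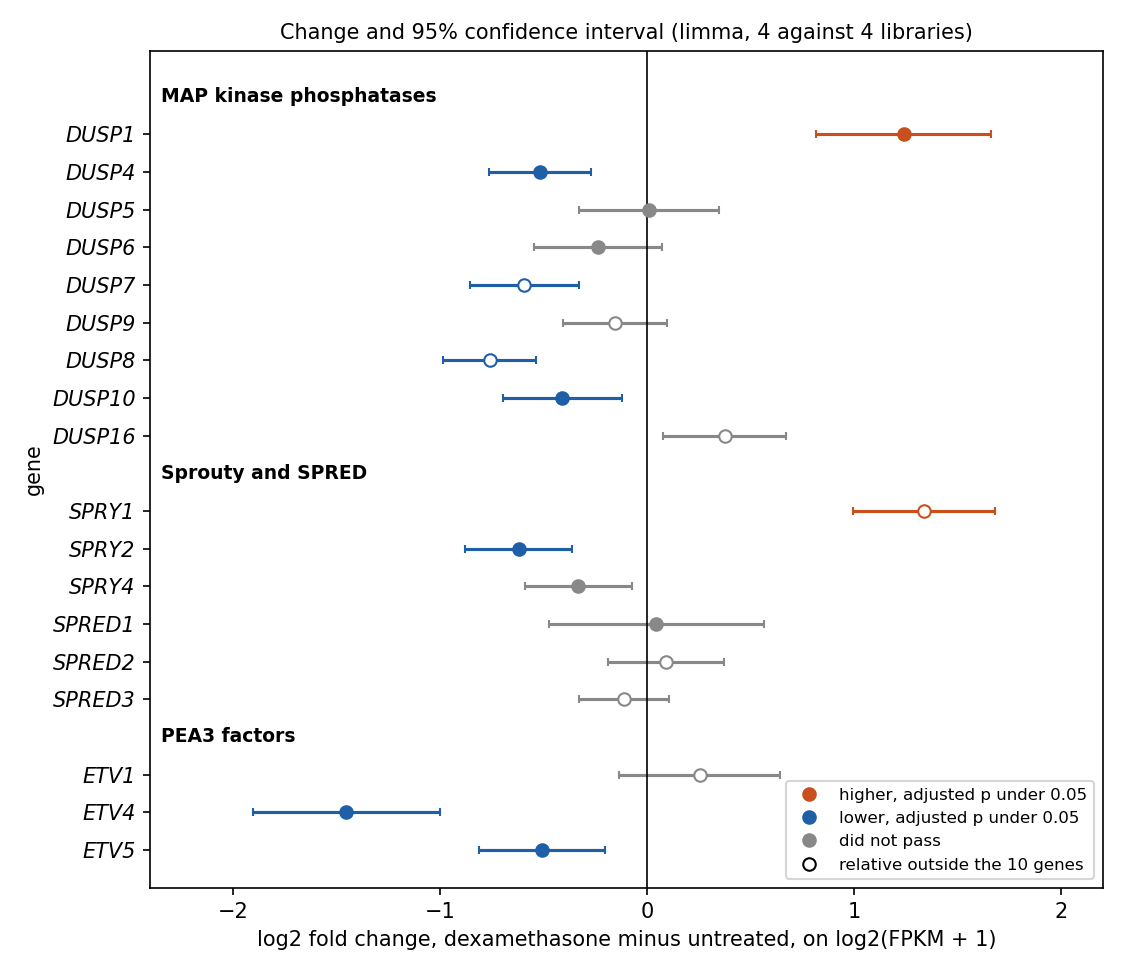
Log2 fold change (dexamethasone minus untreated, on log2(FPKM + 1)) with 95% confidence intervals for the tested phosphatase, Sprouty, SPRED and PEA3 genes; open circles are relatives outside the 10 genes. DUSP1 (1.24) and SPRY1 (1.34) lie to the right of 0 while their relatives DUSP4 (-0.52), DUSP8 (-0.76) and SPRY2 (-0.62) lie to the left.

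Because FPKM is scaled by length, levels of the family could be summed within a library. The sum over the 10 phosphatases was 239 ± 7.35 FPKM untreated and 374 ± 22.8 FPKM after dexamethasone (SD, n = 4 each), and without DUSP1 it was 125 ± 10.8 and 101 ± 5.66 FPKM. DUSP1 held 46.7%, 45.9%, 43.9% and 54.7% of the family's FPKM in untreated replicates 1, 3, 4 and 5 and 72.3%, 71.6%, 72.8% and 75.5% after dexamethasone. The share of DUSP4 went from 30.6% ± 3.74 to 13.7% ± 1.13, and that of DUSP5 from 13.4% ± 0.461 to 8.69% ± 0.394 (SD, n = 4 each), although the level of DUSP5 itself hardly differed. By location, the nuclear enzymes held 91.8% ± 1.27 untreated and 95.5% ± 0.651 after dexamethasone, the cytoplasmic ERK phosphatases 3.62% ± 0.469 and 1.57% ± 0.127, and the JNK and p38 phosphatases 4.55% ± 0.814 and 2.95% ± 0.527 (SD, n = 4 each). A share also moves with the total, which DUSP1 raised: the summed level of the JNK and p38 phosphatases was 8.27 to 12.1 FPKM untreated and 9.34 to 12.4 FPKM after dexamethasone, and that of the cytoplasmic enzymes 7.16 to 9.64 and 5.49 to 6.34 FPKM. These shares are descriptions of transcripts and were not tested.

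**Figure D3:**
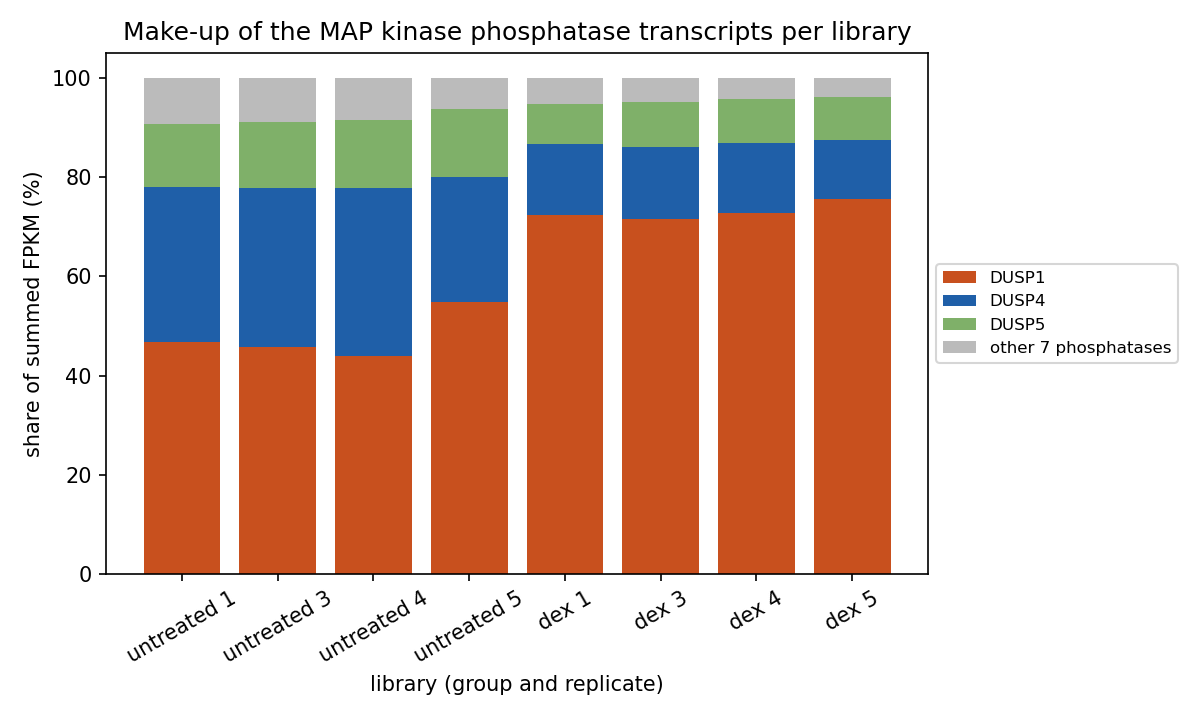
Percent of the summed FPKM of the 10 MAP kinase phosphatases held by DUSP1, DUSP4, DUSP5 and the other 7 in each library. DUSP1 makes up 43.9% to 54.7% of the bars in untreated libraries and 71.6% to 75.5% in dexamethasone libraries.

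Among the upstream inhibitors, SPRY2 (ENSG00000136158, chromosome 13, 80335976 to 80341793, minus strand) fell. Untreated replicates 1, 3, 4 and 5 had 10.1, 9.40, 8.38 and 7.72 FPKM, against 5.34, 5.51, 5.84 and 5.21 FPKM after dexamethasone, with no overlap. The ratio of mean FPKM, untreated over dexamethasone, was 1.63 and the log2 fold change was -0.62 (SE 0.116, 95% confidence interval -0.88 to -0.36, limma adjusted p = 0.00345). SPRY1, its relative outside the 10 genes, rose: it was at 1.28, 2.06, 2.02 and 1.43 FPKM untreated and at 7.86, 5.67, 4.96 and 5.03 FPKM after dexamethasone (log2 fold change 1.34, SE 0.153, limma adjusted p = 0.000213). Within a library the ratio of SPRY1 to SPRY2 was 0.126 to 0.241 untreated and 0.849 to 1.47 after dexamethasone.

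SPRY4 (ENSG00000187678, chromosome 5, 142310427 to 142326455, minus strand) had values of 3.96, 4.14, 3.49 and 2.97 FPKM untreated and 2.75, 3.15, 2.41 and 2.48 FPKM after dexamethasone, in replicates 1, 3, 4 and 5. The deposited values overlapped, and after scaling they did not (3.25 to 3.86 against 2.34 to 3.09 scaled FPKM). The log2 fold change was -0.33 (SE 0.115, 95% confidence interval -0.59 to -0.07), which did not pass after adjustment (limma adjusted p = 0.0585). Without both libraries numbered 5, or with no filter, it was also -0.33 and passed (limma adjusted p = 0.0441 and 0.0437), whereas it was -0.19 with the GC trend removed and -0.28 with equal sums, neither of which passed (limma adjusted p = 0.171 and 0.189). SPRY3, at 0.0335 to 0.149 FPKM, did not reach the filter. Of the 7 Sprouty and SPRED genes 6 were tested, with 1 higher (SPRY1), 1 lower (SPRY2) and a median log2 fold change of -0.03, so 2 of 6 passed where 27.0% of all tested genes did.

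SPRED1 (ENSG00000166068, chromosome 15, 38252048 to 38357249, plus strand), which brings the RAS inactivator neurofibromin to the membrane, had the widest spread. It was at 3.39, 4.55, 3.72 and 1.22 FPKM untreated and at 3.83, 3.29, 3.48 and 2.10 FPKM after dexamethasone, in replicates 1, 3, 4 and 5, and the replicate numbered 5 was the lowest of each group. The log2 fold change was 0.04 (SE 0.231, 95% confidence interval -0.48 to 0.56, limma adjusted p = 0.902). Its sign changed with the libraries: leaving out untreated replicate 5 gave -0.17, leaving out dexamethasone replicate 1 gave -0.01, and leaving out both replicates numbered 5 gave -0.07. SPRED1 also had the lowest GC content of the 10 genes, 36.3% of its transcript, and with the trend of each library on GC content removed it was -0.33 and passed (limma adjusted p = 0.0133). SPRED2, at 16.1 ± 3.53 and 17.1 ± 1.23 FPKM (SD, n = 4 each), and SPRED3, at 0.996 ± 0.217 and 0.848 ± 0.137 FPKM, did not pass (log2 fold changes 0.09 and -0.11, limma adjusted p = 0.613 and 0.408).

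ETV4 (ENSG00000175832, chromosome 17, 43527844 to 43579620, minus strand), an ETS factor induced and activated downstream of ERK, had the largest fall of the 10 genes. It read 26.4, 27.3, 24.6 and 35.04 FPKM in the untreated wells 1, 3, 4 and 5, and 9.04, 9.38, 9.09 and 11.6 FPKM in the dexamethasone wells. Each dexamethasone library lay below each untreated one, and the replicate numbered 5 was the highest of both groups. The ratio of mean FPKM, untreated over dexamethasone, was 2.90 and the log2 fold change was -1.45 (SE 0.201, 95% confidence interval -1.90 to -1.002, limma adjusted p = 0.000642). ETV4 had the highest GC content of the 10 genes, 60.6%, and with the GC trend removed the log2 fold change was -1.20 (limma adjusted p = 5.89e-06). The annotated gene overlaps DHX8, a helicase gene on the opposite strand, which was at 24.9 ± 0.493 and 24.5 ± 1.90 FPKM (SD, n = 4 each; log2 fold change -0.04, limma adjusted p = 0.857).

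ETV5 (ENSG00000244405, chromosome 3, 186046308 to 186110318, minus strand), also called ERM, was at 20.2, 19.4, 19.8 and 20.1 FPKM untreated and at 13.1, 14.2, 13.0 and 14.9 FPKM after dexamethasone, in replicates 1, 3, 4 and 5. The groups did not overlap. As deposited, the 4 untreated values lay closer together than those of any other of the 10 genes relative to their mean. After scaling they spread from 18.04 to 24.2 scaled FPKM. The log2 fold change was -0.51 (SE 0.136, 95% confidence interval -0.81 to -0.20, limma adjusted p = 0.0214). Without untreated replicate 1 or dexamethasone replicate 1, 3 or 4 it was -0.51, -0.45, -0.50 and -0.46 and did not pass (limma adjusted p = 0.0531, 0.0846, 0.0701 and 0.0871). ETV5 shares 4651 bases with DGKG on the same strand, a diacylglycerol kinase gene at 7.498 ± 1.18 and 6.63 ± 0.141 FPKM (SD, n = 4 each). The ratio of ETV4 to ETV5 was above 1 in each untreated library (1.24 to 1.74) and below 1 in each dexamethasone library (0.658 to 0.776). ETV1, the other PEA3 factor, was at 0.552 to 2.13 FPKM untreated and 1.36 to 1.82 FPKM after dexamethasone and did not pass (log2 fold change 0.25, limma adjusted p = 0.302).

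In untreated cells the order of mean levels was DUSP1, DUSP4, DUSP5, ETV4, ETV5, SPRY2, SPRY4, DUSP10, SPRED1 and DUSP6. DUSP5 and ETV4 overlapped, as did each neighbouring pair from SPRY4 down, and the other neighbours did not overlap over the 4 libraries. After dexamethasone ETV5 stood above ETV4 without overlap, and SPRED1, SPRY4, DUSP10 and DUSP6 again overlapped with their neighbours. DUSP1, at the 98.7th percentile of all genes by mean FPKM, and DUSP4, at the 95.4th, were thus far more abundant than DUSP6, at the 48.4th.

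Genes outside the feedback group that are known to depend on ERK were also measured. Of 12 ERK-dependent output genes 11 were tested, and 1 was higher, 6 were lower and 4 did not pass, where 12.1% of all tested genes were higher and 14.8% lower. Their median log2 fold change was -0.71, against 0.00 over all tested genes. The list was chosen with earlier results of these data known, so these counts are a description and not a test of the list. FOSL1, an AP-1 subunit, fell from 27.4 ± 0.911 to 7.72 ± 0.674 FPKM (SD, n = 4 each; log2 fold change -1.72, limma adjusted p = 1.69e-05). LIF, a cytokine of the interleukin-6 family, fell from 20.6 ± 2.34 to 8.03 ± 0.869 FPKM (log2 fold change -1.27, limma adjusted p = 4e-05). The others that fell were PHLDA1 (log2 fold change -1.01, limma adjusted p = 0.000491), the ephrin receptor gene EPHA2 (-0.78, limma adjusted p = 0.00268), the urokinase receptor gene PLAUR (-0.71, limma adjusted p = 0.00329) and IER3 (-2.86, limma adjusted p = 0.00244). EMP1, a membrane protein gene, was the one that rose, from 0.940 ± 0.249 to 22.0 ± 10.5 FPKM (log2 fold change 3.45, limma adjusted p = 4.51e-05). CCND1, which encodes cyclin D1, was at 85.7 ± 19.4 and 90.8 ± 8.36 FPKM and did not pass (log2 fold change 0.10, limma adjusted p = 0.622). EGR1 was at 0.337 to 0.481 FPKM, below the filter.

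Kinases and adaptors of the pathway were also measured. Of 19 genes of the route from GRB2 through RAS and RAF to ERK and the RSK kinases, 2 were higher, 1 was lower and 16 did not pass, with a median log2 fold change of 0.10; 27.0% of all tested genes passed in either direction. KSR1, a scaffold of the RAF-MEK-ERK module, fell from 11.0 ± 1.11 to 5.66 ± 1.79 FPKM (SD, n = 4 each; log2 fold change -0.89, limma adjusted p = 0.00814). The adaptor gene SHC1 rose from 62.5 ± 3.87 to 98.2 ± 7.81 FPKM (log2 fold change 0.63, limma adjusted p = 0.0184), and that call was lost without untreated replicate 1, 3 or 4 or dexamethasone replicate 3 (0.63, 0.57, 0.58 and 0.64). SHOC2, which helps to activate RAF, had a log2 fold change of 0.79 (limma adjusted p = 0.0317), lost without untreated replicate 1 or dexamethasone replicate 1, 3 or 4 (0.75, 0.70, 0.81 and 0.75) and with no scaling (0.80, limma adjusted p = 0.078), equal sums (0.85, limma adjusted p = 0.0725) or no filter (0.79). With the GC trend removed it was 0.43 and passed (limma adjusted p = 0.00479). MAPK3, which encodes ERK1, did not pass (log2 fold change -0.53, limma adjusted p = 0.235).

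Of 12 RAS GTPase-activating proteins and other brakes 11 were tested, with 0 higher and 2 lower and a median log2 fold change of 0.13, beside 14.8% lower over all tested genes. At an unadjusted p under 0.05 there were 3, where 39.3% of all tested genes lay there. RASA3 fell from 4.54 ± 0.345 to 2.91 ± 0.347 FPKM (SD, n = 4 each; log2 fold change -0.52, limma adjusted p = 0.0117), and with the GC trend removed its log2 fold change was -0.32 and passed (limma adjusted p = 0.0237). Of 17 JNK and p38 cascade genes 15 were tested, with 0 higher, 1 lower and a median log2 fold change of -0.11, and 4 had an unadjusted p under 0.05, beside 27.0% and 39.3% of all tested genes. The lower one was MAP2K3, a kinase that activates p38 (log2 fold change -0.58, limma adjusted p = 0.0310), and its call was lost without untreated replicate 1 or 4 or dexamethasone replicate 1 or 4 (-0.61, -0.58, -0.52 and -0.50); with the GC trend removed it was -0.35 and passed (limma adjusted p = 0.0383). MAP2K6, the second by p, did not pass (-0.36, limma adjusted p = 0.0969), and with the GC trend removed it was -0.68 and passed (limma adjusted p = 0.00318).

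Of 12 atypical dual-specificity phosphatases 11 were tested, with 1 higher, 0 lower and 10 that did not pass, at a median log2 fold change of 0.01. Of these 11, 3 had an unadjusted p under 0.05, and over all tested genes 27.0% passed and 39.3% had such an unadjusted p. STYX, a catalytically inactive relative, was at 3.20 ± 1.53 and 6.09 ± 1.55 FPKM (SD, n = 4 each; log2 fold change 0.83, limma adjusted p = 0.0489). Its call was lost without untreated replicate 1 or dexamethasone replicate 1, 3 or 4 (0.89, 0.76, 0.84 and 0.78), and with no scaling, equal sums, no filter, a filter at 1 FPKM or a pseudocount of 0.1 (limma adjusted p = 0.0999, 0.0929, 0.0761, 0.0502 and 0.0645). With the GC trend removed it was 0.45 and passed (limma adjusted p = 0.00668). DUSP14 did not pass (-0.47, limma adjusted p = 0.0717). Its log2 fold change was below 0 in all 18 other settings. It passed in 7 of them, among them no scaling (-0.46, limma adjusted p = 0.0166) and without both libraries numbered 5 (-0.40, limma adjusted p = 0.00495).

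**Figure D4:**
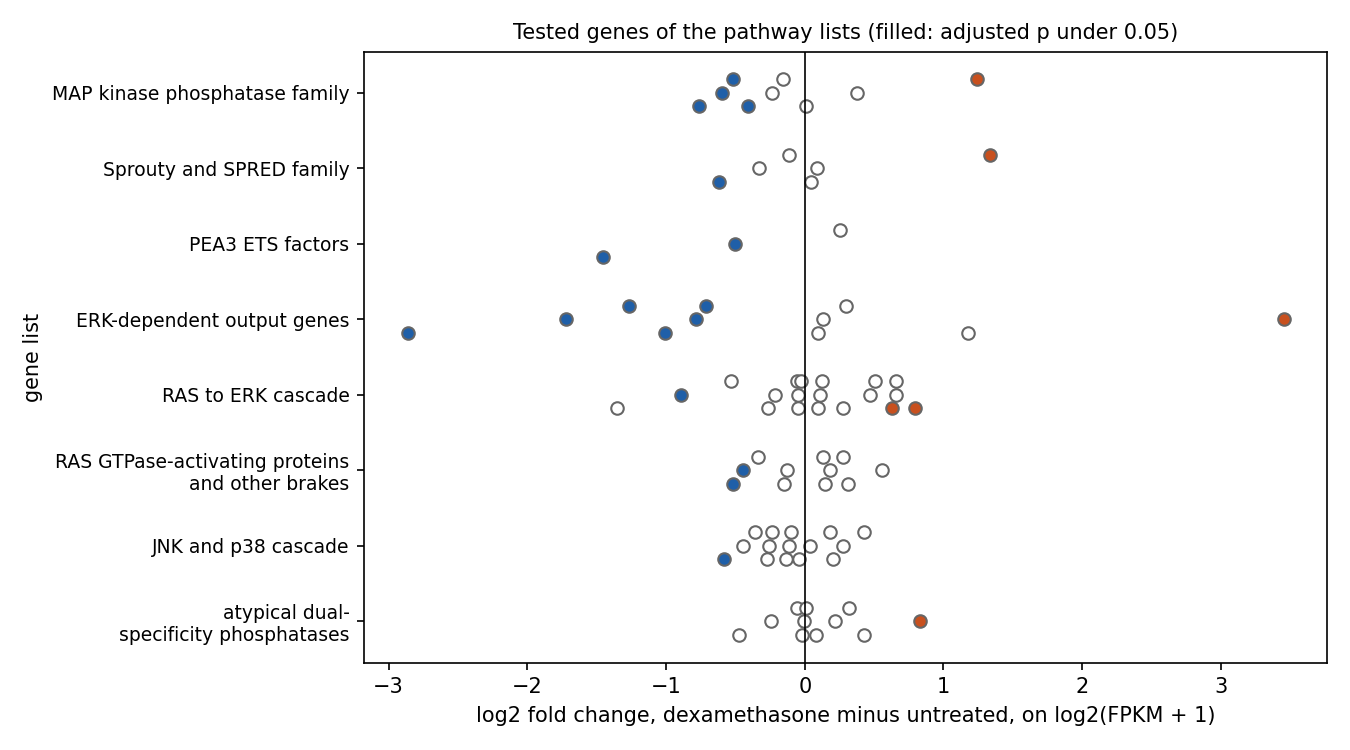
Log2 fold change (dexamethasone minus untreated, on log2(FPKM + 1)) of the tested genes in 8 pathway lists, filled where the adjusted p was under 0.05 (orange higher, blue lower). The lists were chosen with earlier results of these data known. Of the ERK-dependent output genes 6 lie to the left and 1 to the right among those that passed, while 16 of 19 RAS to ERK cascade genes are open circles; over all tested genes 27.0% passed.

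Profiles over the 8 libraries were compared with those of all tested genes, by the mean absolute difference of log2(FPKM + 1) after each gene was centred on its own mean. The profiles nearest to DUSP1 were PYGB, THRA and SQOR, at 0.0322, 0.0658 and 0.0718. Those nearest to ETV4 were PACSIN3, TROAP and KIF22, at 0.0648, 0.0686 and 0.0752. For SPRY4 they were FOXC1, BRD2 and TNFRSF10B, at 0.0266, 0.0416 and 0.0452, and for DUSP6 they were MCM9, NUP43 and B3GLCT, at 0.0393, 0.0416 and 0.0443. None of the other 9 genes of the group was among the 3 nearest to any of these 4. The measure takes in the size of a change, so a gene with another fold change could hardly be near. This absence therefore says nothing on shared regulation.

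Under 18 other settings DUSP1, DUSP4, SPRY2 and ETV4 kept their direction and their call in each, whereas DUSP10 kept its call in 9 and ETV5 in 14. DUSP1 ranged from 1.16 to 1.44 on the log2 scale, DUSP4 from -0.54 to -0.40, SPRY2 from -0.70 to -0.55 and ETV4 from -1.56 to -1.20.

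**Figure D5:**
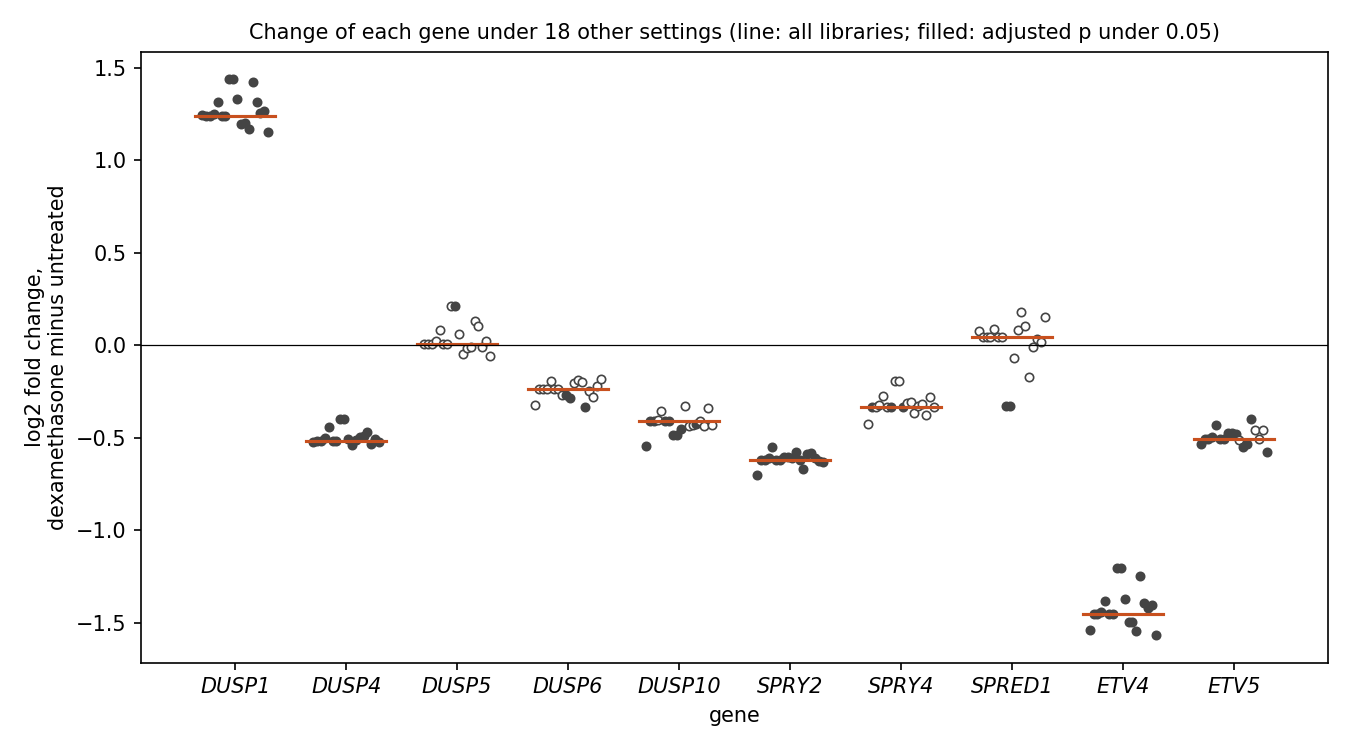
Log2 fold change (dexamethasone minus untreated) of the 10 genes under 18 other settings, with a line for the value over all libraries and filled points where the adjusted p was under 0.05. The points of DUSP1 stay between 1.16 and 1.44 and those of ETV4 between -1.56 and -1.20, while SPRED1 spreads across 0, from -0.33 to 0.18.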

How the data were processed

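RNA from 8 wells of A549 cells was depleted of ribosomal RNA and sequenced as paired-end reads, per the labels' protocols. Per the submitters' processing notes, the authors trimmed reads with Cutadapt 3.4, aligned them to GRCh38 with STAR 2.7.9a and counted with featureCounts of Subread 2.0.3. The deposited values are not whole numbers and were read as FPKM: summed after weighting by transcript length they reach 805 to 915 per library, on a scale where the FPKM of all genes would give 1000. The labels' protocols give only a planned range of read pairs, and annotation release, use of strand and the depth of each library are not given in the sources used here, so counting error is unknown. Genes were matched to GENCODE v44 (19065 of 19158) for strand, overlaps and GC content.

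Differences in composition between libraries were removed with TMM factors (trimming 0.3 of M and 0.05 of A values). Genes with at least 0.5 FPKM in 4 libraries were kept. The test on log2(FPKM + 1) was that of limma 3.58.1 (R 4.3.3; trend and robust), two-sided, with the group as the only term; the procedure was checked on simulated data. The 10 genes and all lists were chosen with earlier results of these data known. Named were the 10 genes, their phosphatase, Sprouty, SPRED and PEA3 relatives, the glucocorticoid targets FKBP5, TSC22D3 and PER1, and in each other list the 2 genes with the smallest p and all that passed, except 1 that is not reported here; CCND1, EGR1, MAPK3, MYC, SOS1, SOS2, the cell type markers, DHX8 and DGKG were added after their values were seen. Alternatives were a pseudocount of 0.1, no filter or 1 FPKM, no scaling or equal sums, limma without trend and robust, the replicate number as a block, a GC trend removed by lowess (span 0.3), and leaving out libraries, with the filter at 3 libraries.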

Additional observations from a re-analysis of the deposited data

Results flagged for a closer look

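Each group of 4 values was searched for a library whose gap to its nearest neighbour filled most of the group's range (Dixon's criterion at 95%). This held in 7 of 80 groups, and chance gives about 1 in 20. Of these, 5 were a replicate numbered 5 and the rest were MYC. MYC and SOS2 were added to the search after their values were seen, so the share of 7 in 80 cannot be set against chance. DUSP6 in untreated replicate 5 was at 1.56 FPKM, and the other untreated libraries were at 2.93 to 3.17 FPKM. ETV4 in dexamethasone replicate 5 was at 11.6 FPKM, against 9.04 to 9.38 FPKM in the other dexamethasone libraries. DUSP9 in the same library was at 0.967 FPKM, against 0.563 to 0.590 FPKM. DUSP14 and RASA3 in untreated replicate 5 were at 19.1 and 4.03 FPKM, against 15.3 to 15.9 and 4.66 to 4.75 FPKM.

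MYC stood apart in both libraries numbered 1. Its levels there were 24.4 FPKM (untreated) and 23.7 FPKM (dexamethasone), against 2.87 to 3.96 and 3.94 to 4.12 FPKM in the other libraries of each group.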

How the results depend on the processing

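Over all genes 1476 were higher and 1804 lower. Without both libraries numbered 5 these counts were 2719 and 2794. With the GC trend removed 2233 were higher, and the lower count stayed within 1.5 times. The replicate number as a block gave 2843 and 2926, and with the GC trend removed as well 2665 higher. The numbers were not taken as pairing the wells. Deviations of same-numbered libraries from their group means correlated at 0.291, 0.0659, 0.314 and 0.713 for replicates 1, 3, 4 and 5. These were all positive, but untreated replicate 3 correlated best with dexamethasone replicate 1. Some values did go with the number, as MYC was high in both libraries numbered 1. Mitochondrial genes held 6.04% and 9.44% of summed FPKM in the replicates numbered 1 (untreated and dexamethasone), the highest of each group. In those numbered 5 they held 1.74% and 2.55%, the lowest of each group. What the wells of a number shared was not modelled in the main fit. With the block the SE of DUSP1 was 0.102, against 0.187 in the main fit. Among the 10 genes, SPRY4 passed with the block (log2 fold change -0.33, limma adjusted p = 0.0236) but not with block and GC trend removal together (-0.19, limma adjusted p = 0.0643). Among relatives and listed genes, DUSP16, DUSP14 and MAP2K6 passed with the block (limma adjusted p = 0.0156, 0.00623 and 0.0499), and MAP2K3 did not pass with the block and the GC trend removed (-0.35, limma adjusted p = 0.0653). Block and GC trend removal together gave 2 higher genes of the 10 in place of 1, through DUSP5 (0.21, limma adjusted p = 0.0240).

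The number of the 10 genes that were lower, 5 in the full comparison, ranged from 3 to 6 with a library left out, as ETV5 and DUSP10 lost their calls or, without untreated replicate 5, DUSP6 gained one. Over 18 settings each, the 10 genes gave 180 values. Of these, 150 kept direction and call, 13 lost the call, 7 gained one in the same direction and 10 changed sign. Among the sign changes, SPRED1 with the GC trend removed also passed, without and with the block (limma adjusted p = 0.0133 and 0.0151). The sign changes belonged to DUSP5 (-0.056 to 0.13 with a library left out) and SPRED1 (-0.17 to 0.18 with a library left out, -0.065 without both libraries numbered 5, -0.33 with the GC trend removed, with or without the block). With the GC trend removed, with or without the block, DUSP9 was at 0.14, SPRED3 at 0.13 and ETV1 at -0.10. The cause of these changes was not tested. The differences in family share by location kept their direction without any 1 library and without both numbered 5.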

Other observations

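SOS2, which encodes a RAS activator, varied widely within both groups. Untreated replicates 1, 3, 4 and 5 had 123, 23.8, 49.1 and 124 FPKM, against 8.08, 88.1, 126 and 3.59 FPKM after dexamethasone, while its relative SOS1 was at 2.13 to 9.16 FPKM in all 8 libraries. The log2 fold change of SOS2 was -1.35 with a 95% confidence interval of -3.74 to 1.03 (limma adjusted p = 0.367). Among the other markers checked, CDH1 rose from 6.80 ± 1.51 to 18.2 ± 1.45 FPKM and KRT19 fell from 156 ± 30.6 to 54.7 ± 8.28 FPKM (SD, n = 4 each; limma adjusted p = 8.87e-05 and 0.00119).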
